A study of Rattus norvegicus and Mus musculus with 12 samples.

Results

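The genes analysed here make, bind and break down hyaluronan. They were chosen by name as Has1, Has2, Has3, Hyal1, Hyal2, Cd44, Tnfaip6, Cemip and Tmem2, and all 9 were found among the 19687 genes of the rat table and the 28603 genes of the mouse table. Tmem2 is listed in both tables under its newer symbol, Cemip2. All 9 passed the filter on low counts in both species, although Has1 and Has3 in rat and Has3 in mouse stayed under 1 FPKM in every library.

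The libraries were made from passage 1 chondrocytes of newborn rat and mouse articular cartilage taken at an age of 24 h, with 3 independent samples in each group. In the rat and mouse model groups (RM and MM), the chondrocytes had received 20 ng/ml IL-1β for 24 h, and in the rat and mouse control groups (RC and MC) they had not. The rats were labelled as strain SD. The mice were C57BL/6 in the study's methods, while the mouse strain labels count upwards from library to library. Whether the samples came from separate animals or cultures is not given in the sources used here, so P values measure only the spread between these samples, which may be technical. All groups are cultured primary cells, without the joint or its other tissues.

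Hyaluronan is a long unbranched polysaccharide that hyaluronan synthases in the plasma membrane build from UDP-sugars. In cartilage it is the backbone to which aggrecan binds with the help of link protein, and the receptor CD44 holds this network at the chondrocyte surface. Hyaluronidases and the CEMIP proteins cut the polymer, and the secreted protein TSG-6, encoded by Tnfaip6, attaches protein chains to it.

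Between 20169272 and 25903459 reads per library were counted in rat and between 16841580 and 20048322 in mouse. The TMM factors, which adjust library sizes for differences in RNA composition, were 0.9941 to 1.008 in rat. They were 1.099 to 1.104 in MC and 0.9052 to 0.9107 in MM, and this scaling shifts all mouse fold changes by one amount. With library size alone, the mouse genes as a whole had a median log2 fold change of -0.295, against -0.0163 with TMM. The libraries of RC differed more among themselves than those of the other groups, with a chi-square per degree of freedom of 12.2 to 27.6 between pairs of RC libraries, 5.94 to 6.52 in RM and 1.88 to 2.45 in the mouse groups. The chondrocyte markers were present in all libraries, and all 8 of them fell in both species, from a summed FPKM of 4940 to 5590 in RC to 1960 to 2000 in RM and from 2210 to 2260 in MC to 207 to 219 in MM. Of 6 fibroblast and synovial markers, 2 rose and 2 fell in rat, and 4 rose and 2 fell in mouse with TMM, where Col3a1 (0.16) and Pdgfra (0.26) rose slightly but had a lower mean FPKM in MM than in MC. The summed FPKM of the 6 markers, most of it from Col1a1 and Col3a1, was 3900 to 4460 in RC and 3070 to 3160 in RM, beside 2340 to 2370 in MC and 1420 to 1430 in MM. Among them Prg4, the gene of lubricin, rose 55.4-fold in rat and 10.3-fold in mouse, and Pdpn rose 6.63-fold in mouse and 1.17-fold in rat. The markers that fell were Col1a1 in both species (log2 fold change -0.90 in rat and -1.48 in mouse), Col3a1 in rat (-0.98) and Thy1 in mouse (-1.56). Summed endothelial markers stayed at or under 0.504 FPKM and muscle markers at or under 4.35 in every library. Their part in the changes below was not tested. In RNA from whole cultures, fewer cells of a type and less RNA per cell cannot be told apart.

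With IL-1β, 5 of the 9 hyaluronan genes rose and 1 fell in rat, and 6 rose and 2 fell in mouse, by edgeR's quasi-likelihood test at an adjusted P under 0.05. Called genes were common in both species. Over all genes tested, 18.3% were called higher and 16.8% lower in rat (35.1% in all), and 37.4% higher and 37.7% lower in mouse (75% in all). The median log2 fold change of the 9 genes was 0.63 in rat and 0.58 in mouse, beside 0.00519 and -0.0163 over all genes tested. Each median is the value of 1 gene. In rat it is Has1, which was not called (adjusted P = 0.241). In mouse it is Cemip, which had 0.30 with library size alone, where the mouse genes as a whole had -0.295. Cd44 and Tnfaip6 rose in both species, and so did Tmem2 with TMM, although its mouse direction was the opposite with library size alone (-0.04), while Has2 and Hyal1 changed in opposite directions. Over the 10912 shared genes tested in both species, 19.4% were called in both in the same direction and 12.5% in opposite directions. The control and model libraries did not overlap in TMM-scaled values for 6 of the 9 genes in rat and for all 9 in mouse (8 in FPKM, where Tmem2 overlapped), where this held for 47.9% and 76.5% of all genes tested. The study's criteria for DEGs were read here as P under 0.05 before adjustment, |log2 fold change| no smaller than 0.85 and 1 FPKM or more in some library. The log scale, the use of both directions and the unadjusted P are this reading's choice. By these criteria, 3 of the 9 genes were upregulated in rat (Cd44, Tnfaip6 and Tmem2) and 4 in mouse (Cd44, Tnfaip6, Has1 and Hyal1). Of all genes tested, 4.64% were upregulated by these criteria in rat and 12.6% in mouse. None of the 9 was downregulated by them, whereas 3.9% of all rat genes and 13% of all mouse genes were (8.54% and 25.6% in both directions together). FPKM, used below for levels, relates a count to gene length and to the number of reads counted in the library. It is not TMM-scaled, so the mouse log2 fold changes given beside FPKM values are not the ratios of those values.

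The change with IL-1β also differed between rat and mouse for 8 of the 9 genes. It was larger in mouse for Has1, Hyal1, Cemip and Cd44 and larger in rat for Has2, Has3, Hyal2 and Tmem2. Of the 12388 shared genes tested, 58.8% had a called difference, 29.2% with the larger change in mouse and 29.6% with the larger change in rat, where larger means more positive.

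**Figure D1:**
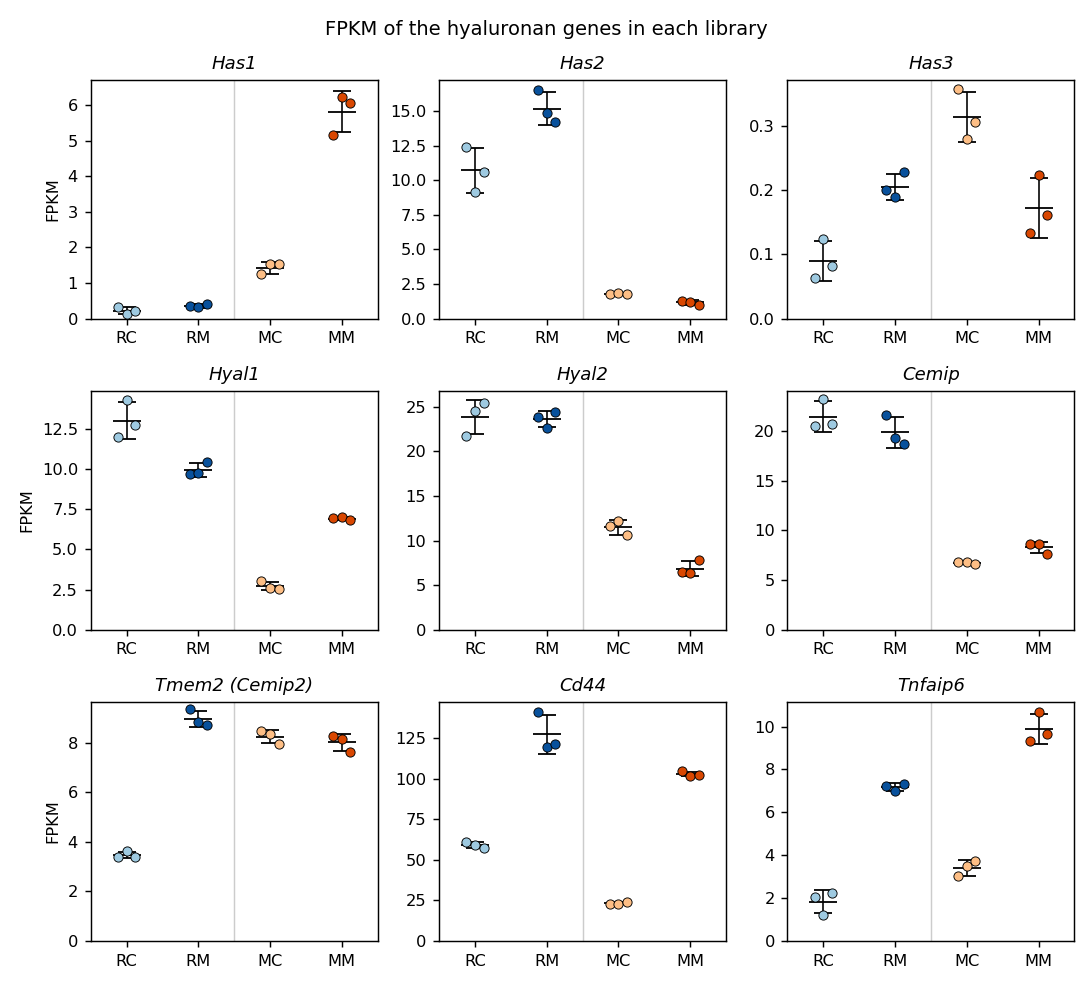
FPKM of the 9 hyaluronan genes (vertical axes, 1 scale per gene, from 0) in the 12 libraries, grouped as RC, RM, MC and MM. Each point is 1 library, the long bar is the mean and the error bars are 1 SD (n = 3). Cd44 and Tnfaip6 are higher in every RM and MM library than in the controls of the species, whereas the FPKM of Tmem2 (Cemip2) separates the rat groups and overlaps between the mouse groups.

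Has1, Has2 and Has3 encode the 3 hyaluronan synthases, and each changed differently in the 2 species. Has2 (ENSRNOG00000004854 in rat) had an FPKM of 12.4, 9.11 and 10.6 in the RC libraries and of 16.5, 14.8 and 14.2 in the RM libraries. The RM libraries all lay above the RC libraries, and the log2 fold change was 0.49 (SE 0.11, adjusted P = 0.00683). In mouse, Has2 (ENSMUSG00000022367) had an FPKM of 1.78, 1.84 and 1.79 in the MC libraries and of 1.31, 1.23 and 0.999 in the MM libraries. The groups did not overlap here either, but in the downward direction, with a log2 fold change of -0.33 (SE 0.14, adjusted P = 0.0355). The mouse call is close to the threshold and was lost without MC replicate 1 (adjusted P = 0.0569), MC replicate 2 (0.0755), MC replicate 3 (0.0578) or MM replicate 3 (0.209), with DESeq2 (0.0927) and without the filter on low counts (0.0608). It had a lower adjusted P with library size alone (-0.60, adjusted P = 0.000116), limma on log2(FPKM + 1) (-0.36, adjusted P = 0.00107) and limma on log2(FPKM + 0.1) (-0.58, adjusted P = 0.00202). These settings all leave out TMM, and library size alone moves the mouse genes as a whole downwards (median -0.295). They are therefore not separate checks of Has2. With RLE size factors, another scaling for RNA composition, Has2 had -0.32 (adjusted P = 0.0402). The change in mouse minus that in rat was -0.81 for Has2 (SE 0.18, adjusted P = 0.000749).

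Has1 rose in mouse and was barely counted in rat. In mouse (ENSMUSG00000003665), its FPKM was 1.24, 1.54 and 1.53 in the MC libraries and 5.16, 6.23 and 6.06 in the MM libraries. All MM libraries were more than 3 units above the controls, and the log2 fold change was 2.29 (SE 0.10, adjusted P = 3.82e-30), a 4.9-fold rise. In rat (ENSRNOG00000010994), Has1 was counted only 17, 6 and 10 times in the RC libraries and 15, 17 and 20 times in the RM libraries. These counts overlap, and the log2 fold change of 0.63 was not called (adjusted P = 0.241), with a 95% interval from -0.25 to 1.50 that leaves room for a change in either direction. The change was larger in mouse than in rat by 1.68 (SE 0.38, adjusted P = 0.000964).

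Has3 had the lowest mean FPKM of the 9 genes in every group, between 0.0897 and 0.314. In rat (ENSRNOG00000059362), it was counted 11, 20 and 12 times in the RC libraries and 28, 34 and 38 times in the RM libraries, a log2 fold change of 1.18 (SE 0.32, adjusted P = 0.0152). The call was lost without RC replicate 3 (adjusted P = 0.058) or RM replicate 3 (0.0543), and with limma on log2(FPKM + 1) (0.092). In mouse (ENSMUSG00000031910), the counts were 39, 30 and 35 in the MC libraries and 17, 28 and 18 in the MM libraries, and the log2 fold change of -0.58 was not called with TMM (adjusted P = 0.0647). It was called with library size alone (-0.86, adjusted P = 0.00576) and without MM replicate 2 (-0.81, adjusted P = 0.0284). Has3 shares 352 of its 6380 mouse exon bases with Chtf8 on the opposite strand, whose reads may not be separable. Overlaps in rat were not examined. Its change was lower in mouse than in rat by a log2 difference of -1.75 (SE 0.40, adjusted P = 0.00114).

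Has2 was the main synthase transcript in rat with and without IL-1β, while in mouse Has2 held the largest share without IL-1β and Has1 with it. As a share of the summed FPKM of the 3 synthase genes, Has2 made up 97.2% ± 0.206 (SD, n = 3) in RC and 96.4% ± 0.552 in RM. In MC, Has2 held 50.8% ± 1.71 and Has1 40.4% ± 3.11. In MM, Has1 held 81.1% ± 2.88 and Has2 16.5% ± 3.03. The Has1 share was 36.8%, 42.1% and 42.2% in the MC libraries and 78.2%, 81.1% and 83.9% in the MM libraries, with no overlap. Has3 held 0.856% ± 0.423 in RC and 1.31% ± 0.196 in RM, and 8.88% ± 1.52 in MC and 2.39% ± 0.471 in MM. The summed FPKM of the synthases was 9.36 to 12.8 in RC and 14.8 to 17.03 in RM, and 3.38 to 3.65 in MC and 6.6 to 7.69 in MM. The sum was thus higher in every model library than in the controls of its species, carried by Has2 in rat and by Has1 in mouse. The gene lengths behind the FPKM differ between the species (2096 bases for Has1 in rat and 4518 in mouse), so levels in rat and mouse are given side by side and not compared by a test.

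**Figure D2:**
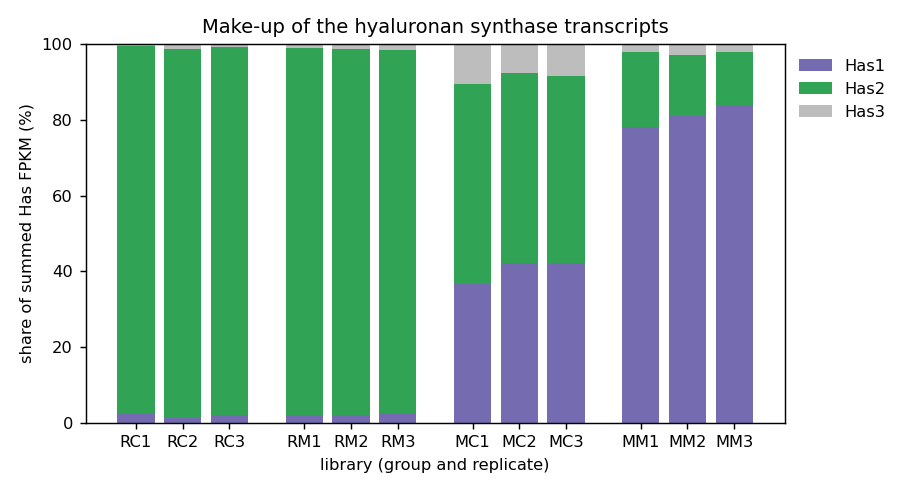
Share of Has1, Has2 and Has3 in their summed FPKM (vertical axis, %) in each of the 12 libraries (horizontal axis, group and replicate number). Has2 fills 95.8% or more of every rat bar, and the Has1 part rises from 36.8% to 42.2% in the MC libraries to 78.2% to 83.9% in the MM libraries.

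Of the enzymes that break hyaluronan down, Hyal1, which encodes a lysosomal hyaluronidase, moved in opposite directions. In rat (ENSRNOG00000015858), its FPKM was 12.01, 14.3 and 12.7 in the RC libraries and 9.67, 9.74 and 10.4 in the RM libraries. All RM libraries were lower, with a log2 fold change of -0.40 (SE 0.096, adjusted P = 0.00842). In mouse (ENSMUSG00000010051), the FPKM was 3.02, 2.61 and 2.54 in the MC libraries and 6.96, 7.00 and 6.81 in the MM libraries, a log2 fold change of 1.63 (SE 0.088, adjusted P = 1.78e-25). The difference between the species, 2.03 (SE 0.13, adjusted P = 3.62e-10), was the largest of the 9 genes. In the mouse annotation, Hyal1 shares 1920 of its 3777 exon bases with Naa80 on the same strand. Naa80 was counted 268, 252 and 252 times in the MC libraries and 696, 600 and 564 times in the MM libraries. Its part in the rise of Hyal1 was not tested. Overlaps of the rat genes were not examined, since no annotation of Rnor_6.0 was at hand.

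Hyal2 encodes the hyaluronidase that is anchored at the cell surface. It had an FPKM of 21.8, 24.5 and 25.4 in the RC libraries and of 23.8, 22.6 and 24.5 in the RM libraries of rat (ENSRNOG00000031420). These groups overlap, and the log2 fold change was -0.03 with a 95% interval from -0.21 to 0.15 (adjusted P = 0.801). In mouse (ENSMUSG00000010047), its FPKM fell from 11.6, 12.2 and 10.6 to 6.44, 6.38 and 7.78. The log2 fold change was -0.47 with TMM (SE 0.072, adjusted P = 4.57e-08) and -0.74 with library size alone (adjusted P = 4.65e-15). The change was lower in mouse than in rat by a log2 difference of -0.43 (SE 0.12, adjusted P = 0.00541). The order of the hyaluronidase levels in mouse changed with it. Hyal2 stood above Hyal1 in every MC library, and the libraries of both genes overlapped in MM. The mouse level of Hyal1 may depend on the exon bases it shares with Naa80, and their effect on this order was not tested.

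Cemip encodes a secreted protein needed for the depolymerization of hyaluronan. In rat (ENSRNOG00000012442), its FPKM was 20.5, 23.2 and 20.7 in the RC libraries and 21.6, 19.3 and 18.7 in the RM libraries. The groups overlap, and the log2 fold change was -0.13 with a 95% interval from -0.31 to 0.06 (adjusted P = 0.259). In mouse (ENSMUSG00000052353), the FPKM of Cemip rose from 6.79, 6.79 and 6.67 to 8.67, 8.59 and 7.65. The log2 fold change was 0.58 with TMM (SE 0.044, adjusted P = 1.01e-18) and 0.30 with library size alone (adjusted P = 5.44e-09), so its size rests on the scaling. The change was larger in mouse by 0.71 (SE 0.098, adjusted P = 6.96e-06).

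Tmem2 (Cemip2) encodes a transmembrane relative of CEMIP that has been described as a hyaluronidase of the cell surface. In rat (ENSRNOG00000012782), its FPKM was 3.41, 3.63 and 3.41 in the RC libraries and 9.35, 8.84 and 8.74 in the RM libraries. The groups are far apart relative to their spread, with a log2 fold change of 1.35 (SE 0.075, adjusted P = 5.51e-07), a 2.55-fold rise. In mouse (ENSMUSG00000024754), the FPKM was 8.47, 8.34 and 7.95 in the MC libraries and 8.28, 8.15 and 7.64 in the MM libraries, which overlap. With TMM, the same libraries stood at 7.71, 7.57 and 7.21 against 9.15, 8.98 and 8.38, a log2 fold change of 0.24 (SE 0.051, adjusted P = 3.32e-05). The direction rests on the scaling, since library size alone gave -0.04 (adjusted P = 0.489). The change was lower in mouse than in rat by a log2 difference of -1.11 (SE 0.090, adjusted P = 7.88e-09). Of the CEMIP pair, Tmem2 thus had the larger change in rat and Cemip the larger change in mouse.

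**Figure D3:**
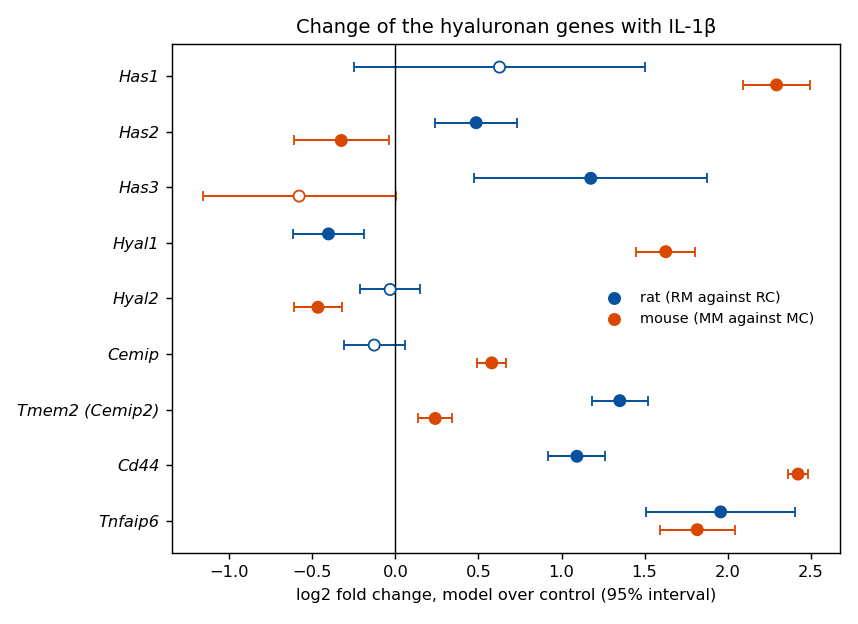
Log2 fold change of the model over the control group (horizontal axis) for the 9 hyaluronan genes in rat and mouse, from edgeR with TMM scaling. Points are fitted values, bars are 95% intervals, and open points were not called at an adjusted P under 0.05. Cd44 and Tnfaip6 lie to the right of 0 in both species, Has2 and Hyal1 lie on opposite sides, and the mouse value of Tmem2 (Cemip2), 0.24, turns to -0.04 with library size alone.

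Tnfaip6 and Cd44 rose in both species. Tnfaip6, the TSG-6 gene, had an FPKM of 2.03, 1.23 and 2.22 in the RC libraries and of 7.24, 7.00 and 7.32 in the RM libraries of rat (ENSRNOG00000050792). The log2 fold change was 1.96 (SE 0.20, adjusted P = 4.12e-05), a 3.88-fold rise. In mouse (ENSMUSG00000053475), the FPKM was 3.01, 3.47 and 3.71 in the MC libraries and 9.33, 10.7 and 9.63 in the MM libraries, a log2 fold change of 1.82 (SE 0.11, adjusted P = 9.64e-23). Tnfaip6 was the only gene of the 9 for which the difference between the species was not called. That difference was -0.14, with a 95% interval from -0.60 to 0.32 (adjusted P = 0.603), so a difference within this interval is left undecided by these libraries.

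Cd44, the hyaluronan receptor of chondrocytes and of many other cells, was the highest of the 9 genes in all 4 groups. In rat (ENSRNOG00000006094), its FPKM was 61.0, 58.9 and 57.4 in the RC libraries and 141.3, 119.5 and 121.6 in the RM libraries. The log2 fold change was 1.09 (SE 0.077, adjusted P = 2.98e-06), a 2.13-fold rise. In mouse (ENSMUSG00000005087), it rose from 23.0, 22.7 and 24.1 to 104.6, 101.9 and 102.1, a log2 fold change of 2.42 (SE 0.031, adjusted P = 1.14e-59), a 5.36-fold rise. The mouse libraries of each group lay close together, and the change was larger in mouse than in rat by 1.33 (SE 0.083, adjusted P = 2.52e-10). Leukocytes also carry CD44. The summed FPKM of the macrophage and leukocyte markers went from 16.3 to 18.4 in RC to 29.5 to 31.8 in RM, over the 5 of 6 markers in the rat table, and from 5.62 to 5.98 in MC to 32.1 to 33.5 in MM. Most of this came from Cd14 and Cd68. Ptprc, the pan-leukocyte gene, had 20 counts over RC, 16 over RM, 3 over MC and 1 over MM. Adgre1 had 18 counts over RC, 23 over RM, 1 over MC and 0 over MM, and Itgam had 0 counts in every mouse library. Csf1r fell in rat, from 184 to 81 counts (log2 fold change -1.20, adjusted P = 0.00269), and rose in mouse, from 104 to 153 (0.70, adjusted P = 0.0087).

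The 250 bases upstream of the rat gene are shown for Tnfaip6 and Cd44 because both rose in rat and in mouse, from RefSeq on the GRCr8 assembly, which is not the Rnor_6.0 build of the counts. Sequences of this kind were at hand for 6 of the 9 genes. Capitals mark a match to the AP-1 motif TGANTCA, a site bound by factors such as FOS and JUN. Tnfaip6 lies on the + strand (chr3:56911148-56911397) and Cd44 on the - strand (chr3:109699425-109699674).
Tnfaip6: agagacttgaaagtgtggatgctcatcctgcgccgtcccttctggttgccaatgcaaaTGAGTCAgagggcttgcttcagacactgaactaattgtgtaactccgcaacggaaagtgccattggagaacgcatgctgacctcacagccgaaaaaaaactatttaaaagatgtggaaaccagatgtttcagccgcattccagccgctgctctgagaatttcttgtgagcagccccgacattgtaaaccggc
Cd44: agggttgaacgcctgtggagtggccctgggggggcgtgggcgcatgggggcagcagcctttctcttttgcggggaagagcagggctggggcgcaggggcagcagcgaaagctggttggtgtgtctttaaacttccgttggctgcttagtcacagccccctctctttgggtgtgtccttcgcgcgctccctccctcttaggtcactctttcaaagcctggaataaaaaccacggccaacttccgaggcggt
The Tnfaip6 sequence holds TGAGTCA from base -192 to base -186, counted from the annotated start of transcription. This motif was in 6.34% of 33465 rat sequences of the same length. Neither sequence held the NF-κB motif (0.974% of all sequences), the C/EBP motif TTGCNNAA (9.22%) or, on the forward strand, the TATA box TATAAA (8.06%), the other motifs being searched on both strands. The TATA box was found in the Cemip sequence. A match is a description of the letters and not of binding.

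The order of the levels changed in both species. In RC, the mean FPKM fell from Cd44 (59.1 ± 1.78, SD, n = 3) over Hyal2, Cemip, Hyal1, Has2, Tmem2, Tnfaip6 and Has1 to Has3 (0.0897 ± 0.0309). Neighbours in this order had overlapping libraries for Hyal2 and Cemip, for Hyal1 and Has2 and for Has1 and Has3. In RM, Has2 (15.2 ± 1.17) stood above Hyal1 (9.95 ± 0.422) and no neighbours overlapped. In MC, the order was Cd44, Hyal2, Tmem2, Cemip, Tnfaip6, Hyal1, Has2, Has1 and Has3, with overlap of Tnfaip6 and Hyal1 alone. In MM, Tnfaip6 (9.88 ± 0.703) was next after Cd44 (102.9 ± 1.51), followed by Cemip, Tmem2, Hyal1, Hyal2, Has1, Has2 and Has3. There, Cemip overlapped with Tmem2 and Hyal1 with Hyal2. The mouse place of Tmem2 depends on the length behind its FPKM (6667 bases, against 8520 exon bases in the annotation below). That of Hyal1 may depend on the bases shared with Naa80. The effect of either on the order was not tested.

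In mouse (GRCm38, GENCODE M21), the synthase genes are on chromosome 17 (Has1, 17843323 to 17855205, - strand), chromosome 15 (Has2, 56665627 to 56694539, - strand) and chromosome 8 (Has3, 106870242 to 106884566, + strand). Hyal2 (107567945 to 107572779) and Hyal1 (107576927 to 107581710) are neighbours on the + strand of chromosome 9. Cemip is on the - strand of chromosome 7 (83932857 to 84086502) and Tmem2 on the + strand of chromosome 19 (21778342 to 21858360). Cd44 (102811141 to 102901665, - strand) and Tnfaip6 (52038009 to 52056686, + strand) are on chromosome 2. The length behind the deposited FPKM of Tmem2, 6667 bases, differs from the 8520 exon bases of this annotation, whereas the lengths of the other 8 genes match it. Has2 shares 182 exon bases with the antisense gene Has2os, which had 61 counts over all mouse libraries.

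Of 37 other genes of the hyaluronan pathway, 22 were tested in rat and 24 in mouse. In rat, 6 rose and 10 fell, with a median log2 fold change of -0.14. In mouse, 12 rose and 9 fell with TMM, with a median of 0.25, and 9 rose and 9 fell with library size alone. The shares over all genes tested, with TMM, were 18.3% higher and 16.8% lower in rat, and 37.4% higher and 37.7% lower in mouse. With library size alone, 3699 of the 14774 mouse genes tested were called higher and 8074 lower. The difference between the species was called for 19 of the 25 genes that could be tested for it, against 58.8% of all shared genes tested.

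Of the 7 genes that supply the UDP-sugars, 4 rose and none fell in rat, and 5 rose and 1 fell in mouse, where 18.3% of all rat genes and 37.4% of all mouse genes were called higher. With library size alone, Gfpt1 was no longer called in mouse (-0.04, adjusted P = 0.28), which leaves 4 that rose there. That scaling called 3699 of the 14774 mouse genes tested higher. Ugdh, whose enzyme makes UDP-glucuronic acid, had log2 fold changes of 1.12 in rat (SE 0.068, adjusted P = 9.42e-07) and 1.91 in mouse (SE 0.030, adjusted P = 1.20e-54). Uap1, which encodes the enzyme of the last step to UDP-N-acetylglucosamine, had 0.46 in rat (adjusted P = 0.00193) and 1.75 in mouse (adjusted P = 2.53e-45). Gfpt2, for the entry step of the hexosamine pathway, had 0.45 in rat (adjusted P = 0.00131) and 1.88 in mouse (adjusted P = 1.99e-33). All 3 changes were larger in mouse, by 0.79 for Ugdh, 1.30 for Uap1 and 1.43 for Gfpt2 (largest adjusted P = 3.01e-08). Ugp2, which makes UDP-glucose, rose in mouse (0.69, adjusted P = 7.59e-26) and had -0.15 in rat (adjusted P = 0.363). Gnpnat1 rose in rat (0.28, adjusted P = 0.029) and had an FPKM of only 0.183 ± 0.0414 in MC and 0.108 ± 0.03 in MM.

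Among matrix proteins that bind hyaluronan, the cartilage proteoglycan gene Acan fell and Vcan, the gene of the related proteoglycan versican, rose in both species. Of this group, 1 of 8 tested genes rose and 6 fell in rat, and 4 of 10 rose and 5 fell in mouse with TMM. The shares of all genes tested were 18.3% higher and 16.8% lower in rat, and 37.4% higher and 37.7% lower in mouse. The mouse rise of Itih2 (0.27 with TMM) was not called with library size alone (-0.007, adjusted P = 0.872). The FPKM of Acan was 528.9 ± 64.6 (SD, n = 3) in RC and 153.3 ± 10.98 in RM, and 78.3 ± 2.74 in MC and 4.22 ± 0.589 in MM, with log2 fold changes of -1.80 (adjusted P = 3.11e-07) and -3.94 (adjusted P = 2.12e-62). Hapln1, the gene of link protein, had -1.36 (adjusted P = 3.58e-05) and -1.87 (adjusted P = 1.07e-47). Vcan rose from 14.8 ± 2.28 to 52.0 ± 2.08 in the rat libraries, and in the mouse libraries it rose from 21.4 ± 0.274 to 81.2 ± 1.83, with log2 fold changes of 1.80 (adjusted P = 6.33e-07) and 2.20 (adjusted P = 1.05e-59). Ptx3, which encodes a pentraxin that binds TSG-6, fell in rat by 0.49 on the log2 scale (adjusted P = 0.00317) and rose in mouse (2.01, adjusted P = 7.56e-55), a difference of 2.498 (adjusted P = 2.64e-13).

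Of the receptors, Hmmr, whose product binds hyaluronan and is also a protein of the mitotic spindle, rose in rat (1.04, adjusted P = 0.00148) and fell in mouse (-0.94, adjusted P = 6.06e-21), a difference of -1.99 (adjusted P = 3.72e-07). Layn, the gene of layilin, rose in mouse (1.73, adjusted P = 9.85e-35) and had 0.15 in rat (adjusted P = 0.233). Stab1, a scavenger receptor gene, fell in rat (-0.90, adjusted P = 0.00187). In mouse, Stab1 had 0.66 (adjusted P = 0.14) at only 27 counts over MC and 39 over MM. Stab2 fell in mouse (-2.02, adjusted P = 6.98e-07) from a level under 1 FPKM. Of the lysosomal enzymes that trim hyaluronan fragments, Hexa fell in both species (-0.35 in rat and -0.20 in mouse, larger adjusted P = 0.00384). Gusb had -0.14 in rat (adjusted P = 0.136) and 0.26 in mouse with TMM (adjusted P = 1.42e-07), a direction that was the opposite with library size alone. Hyal3 fell in rat (-0.52, adjusted P = 0.0305) and was not tested in mouse.

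**Figure D4:**
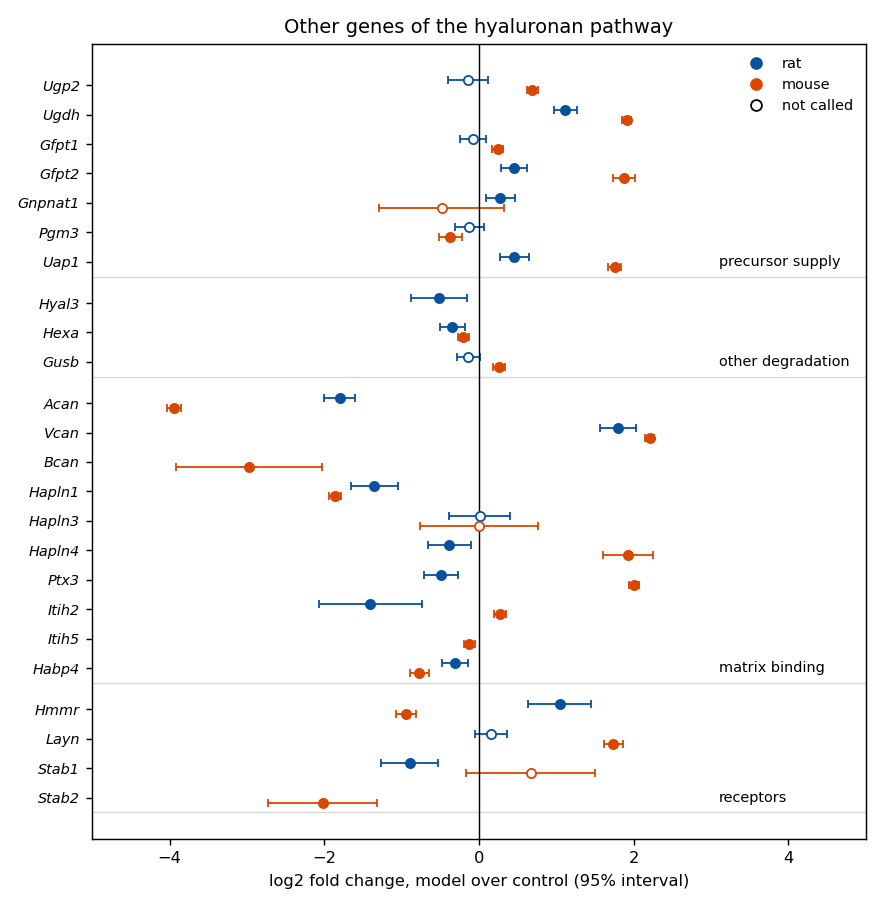
Log2 fold change of the model over the control group (horizontal axis) in rat and mouse for other hyaluronan pathway genes that passed the filter on low counts, all but 1 of them shown, ordered by role, with 95% intervals. Open points were not called at an adjusted P under 0.05. Acan and Hapln1 lie left of 0 and Vcan and Ugdh right of 0 in both species, while Ptx3 and Hmmr lie on opposite sides. The mouse values of Gfpt1, Gusb, Hapln3 and Itih2 change sign with library size alone.

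The shared genes whose log2 CPM over the 12 libraries, centred within each species, was most like that of a member were listed for Has2, Tnfaip6 and Cd44 out of 9531 genes. For Has2, they were Amd1 (Pearson r = 0.965), Zfp606 (0.962) and Tial1 (0.960). For Tnfaip6, they were Ywhae (0.991), Sqor (0.989) and Hsd11b1 (0.987), with fitted log2 fold changes of 0.19, 1.32 and 1.98 in rat, beside 0.19, 1.33 and 1.85 in mouse. For Cd44, they were Ampd3 (0.9987), Hmga2 (0.9985) and Adm (0.9984). The 12 points form 4 groups, and the correlations are given as a description.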

How the data were processed

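RNA-seq data of 12 chondrocyte libraries were used, 3 for each of the groups RC, RM, MC and MM of the labels. For each species, the authors deposited raw counts per Ensembl gene and FPKM values. The submitters' processing notes name HISAT2, HTSeq 0.11.2 and the builds GRCm38 and Rnor_6.0. The sources used here do not state whether strand was marked or used in counting, and the library kit was taken as not marking it. Reads of overlapping genes may therefore not be separable. The gene length implied by count, library total and deposited FPKM was the same in all libraries of a species, to within 0.1%, in 100% of the 12390 rat and 12916 mouse genes checked. No annotated length entered this check.

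Counts were tested with edgeR 4.0.16 (R 4.3.3) after filterByExpr and TMM, with its quasi-likelihood test and Benjamini-Hochberg adjustment over 13303 rat and 14774 mouse genes. The standard error (SE) is the fitted log2 fold change divided by the square root of the F statistic. The difference between the species was fitted over all 12 libraries on the 12388 genes tested of the 14351 with a shared symbol, with scaling within species. No library was dropped or imputed. A permutation of 3 and 3 libraries, if exact, has 0.1 as its smallest P. DESeq2 1.42.0 and limma 3.58.1 on log2(FPKM + 1) or log2(FPKM + 0.1) were alternatives. The tests were checked on simulated data with known changes. The share of false calls exceeded the nominal rate in rat and for the species difference with each tool, and in mouse with limma (6.86%). Calls near the threshold are less certain there. Only 197 of 13168 rat genes and 195 of 14520 mouse genes were changed in the simulation, far fewer than were called in the data. The share of false calls depends on how many genes change, so these rates need not hold for the data. The simulated rises and falls were balanced, without the difference in RNA composition between MC and MM. The check therefore cannot decide how certain mouse calls near the threshold are.

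The 9 genes, the wider list and the rules for naming genes were chosen with earlier results of these data known. The wider genes named are up to 4 per role and species with the smallest adjusted P (1 gene is counted but not reported by name here), and the 3 genes most like a member were taken among genes with a mean of at least 1 FPKM in a group of each species. Replicate numbers were not used to pair the libraries in the main tests. Whether same-numbered libraries belong together is not given in the sources used here.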

Additional observations from a re-analysis of the deposited data

Results flagged for a closer look

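For 8 of the 9 hyaluronan genes, the change with IL-1β differed between the species in the fit of all 12 libraries, a share of the genes to be read beside the 58.8% of all shared genes tested. The log2 fold change in mouse exceeded that in rat for Hyal1 (by 2.03), Has1 (1.68), Cd44 (1.33) and Cemip (0.71). It was lower in mouse for Has3 (difference -1.75), Tmem2 (-1.11), Has2 (-0.81) and Hyal2 (-0.43). When any 1 of the 12 libraries was left out, each of these 8 differences kept its direction and an adjusted P under 0.05, the largest being 0.0214 for Hyal2.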

How the results depend on the processing

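Of 405 refits of single hyaluronan genes under the alternatives, 387 kept direction and call, 9 lost the call, 4 gained it and 5 changed sign. The sign changes were Tmem2 in mouse with library size alone (-0.0389), limma on log2(FPKM + 1) (-0.0367) and limma on log2(FPKM + 0.1) (-0.0407), Hyal2 in rat without RC replicate 3 (0.0148, where leaving out a library gave -0.112 to 0.0148) and the species difference of Tnfaip6 without RC replicate 2 (0.0840, in a range of -0.278 to 0.0840). The cause was not tested, except that limma on FPKM uses library size alone. The number of hyaluronan genes called lower in mouse was 1 with DESeq2 and without the filter on low counts, and 1 to 3 when a library was left out. By the DEG criteria, 3 rose and 0 fell in rat and 0 fell in mouse. In mouse, limma on log2(FPKM + 1) and on log2(FPKM + 0.1) called 3639 and 3635 genes higher, against 5521, and library size alone called 3699 higher and 8074 lower, against 5521 and 5564. The difference between the species was called lower in mouse for 5742 and 5736 genes with limma, and with library size alone for 5295 against 2495 called higher (3668 and 3612 with TMM). Leaving out 1 library gave 3303 to 6251 called genes in rat, 10824 to 10938 in mouse and 6886 to 7866 for the difference.

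As a share of counts in place of FPKM, Has1 held 1.00%, Has2 97.6% and Has3 1.43% of the synthases in the RC group. Has1 held 1.14% and Has3 2.19% in the RM group, Has2 47.4% and Has3 12.5% in the MC group, and Has3 3.37% in the MM group. Same-numbered control and model libraries did not deviate together, with correlations of -0.0977 to 0.0849 in rat and 0.00124 to 0.0149 in mouse. With so few libraries per group, these values cannot decide whether same-numbered libraries shared a preparation. With the replicate number as a replicate block, 4534 genes were called in rat, 11047 in mouse and 7112 for the difference, and 5 hyaluronan genes rose and 1 fell in rat and 6 rose and 2 fell in mouse, as without it. Depth limits Has1 and Has3 in rat, where 33 and 43 reads were counted over the RC group.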
